A study of Mus musculus with 4 samples.

Results

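The genes described here encode WNT ligands, their receptors and the proteins that tune WNT signalling, in mouse mesenchymal stem cells derived from bone marrow. They were chosen by gene name: the Wnt, Fzd, Sfrp, Dkk and Rspo families plus 14 named genes of the pathway, with 1 probe set per gene, the brightest on average over the 4 arrays. Of the 22180 genes that had a probe set with 1 gene symbol, 54 were members. Of these, 44 lay among the 60% of genes with the highest mean and are called kept. The filter uses the mean of all arrays, so a member could pass through the arrays where it was high. Tcf7, which the choice also names, was not analysed here.

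Each of the 4 groups was measured on 1 Affymetrix array: Snail1-WT cells untreated, Snail1-WT cells given TGF-b1 for 2 h, Snail1-KO cells untreated, and Snail1-KO cells given TGF-b1 for 2 h. Snail1, encoded by Snai1, is a zinc finger repressor, and TGF-b1 is a cytokine that signals through SMAD proteins. The labels name no strain, sex, age or way of deleting Snail1, and do not say whether cultures came from separate animals. Expression is given on the log2 scale of the RMA method, where a step of 1 means 2-fold. With 1 array per group, array and group cannot be told apart, no difference has a replicate check, and no p-value is given.

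WNT ligands are lipid-modified secreted proteins that bind Frizzled receptors together with the co-receptors LRP5 or LRP6. This stabilises beta-catenin, which then works with TCF and LEF factors in the nucleus, while other WNT ligands act through planar polarity and calcium branches. R-spondins raise the number of receptors on the cell by binding LGR4 and removing the ubiquitin ligases ZNRF3 and RNF43. Secreted frizzled-related proteins and WIF1 bind the ligands, Dickkopf proteins such as DKK1 block the co-receptors, and AXIN2, NKD1, NKD2 and NOTUM restrain the signal as feedback genes. In bone marrow stroma, WNT signalling is known for favouring bone formation over fat formation.

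Promoter sequence was available from RefSeq (build GRCm38.p6) for 36 of the 54 members, matched by symbol, of which 28 were kept. Members not matched were, among others, Rspo2, Rspo3, Sfrp1, Dkk3, Fzd6 and Fzd8. The 250 bases before the start site are shown for 6 members with differences between arrays: Lgr4 and Dkk2, which were higher in Snail1-KO cells, Lef1, which was higher after TGF-b1 in Snail1-WT cells, and Wnt4, Nkd1 and Nkd2, which were lower in Snail1-KO cells. Each reads 5′ to 3′ on the gene's strand, and capitals mark a match, on either strand, to one of the motifs given after the sequences.
Lgr4, chr2:109917397-109917646, + strand: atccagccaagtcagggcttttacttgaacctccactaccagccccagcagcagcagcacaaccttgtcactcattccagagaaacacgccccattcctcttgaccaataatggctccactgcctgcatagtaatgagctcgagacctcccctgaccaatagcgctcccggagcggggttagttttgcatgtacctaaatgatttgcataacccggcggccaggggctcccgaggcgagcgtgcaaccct
Dkk2, chr3:132085042-132085291, + strand: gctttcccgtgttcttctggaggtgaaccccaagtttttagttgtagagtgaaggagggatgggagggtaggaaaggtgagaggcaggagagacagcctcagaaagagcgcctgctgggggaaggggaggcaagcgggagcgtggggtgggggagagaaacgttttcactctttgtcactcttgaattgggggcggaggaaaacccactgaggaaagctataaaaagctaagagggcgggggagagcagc
Lef1, chr3:131110047-131110296, + strand: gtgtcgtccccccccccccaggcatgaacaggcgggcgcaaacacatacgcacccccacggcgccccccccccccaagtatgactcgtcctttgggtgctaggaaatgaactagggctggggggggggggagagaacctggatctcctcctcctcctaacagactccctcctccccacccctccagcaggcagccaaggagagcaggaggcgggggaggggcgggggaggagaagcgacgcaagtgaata
Wnt4, chr4:137277385-137277634, + strand: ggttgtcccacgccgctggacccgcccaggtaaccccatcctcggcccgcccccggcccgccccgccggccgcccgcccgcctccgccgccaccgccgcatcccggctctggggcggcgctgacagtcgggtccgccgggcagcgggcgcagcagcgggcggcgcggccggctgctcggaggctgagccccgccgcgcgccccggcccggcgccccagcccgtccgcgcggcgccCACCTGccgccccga
Nkd1, chr8:88527383-88527632, + strand: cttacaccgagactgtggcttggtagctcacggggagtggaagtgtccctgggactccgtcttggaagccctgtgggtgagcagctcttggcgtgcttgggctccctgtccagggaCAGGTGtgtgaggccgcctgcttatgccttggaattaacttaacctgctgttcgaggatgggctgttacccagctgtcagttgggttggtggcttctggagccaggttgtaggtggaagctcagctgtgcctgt
Nkd2, chr13:73847632-73847881, - strand: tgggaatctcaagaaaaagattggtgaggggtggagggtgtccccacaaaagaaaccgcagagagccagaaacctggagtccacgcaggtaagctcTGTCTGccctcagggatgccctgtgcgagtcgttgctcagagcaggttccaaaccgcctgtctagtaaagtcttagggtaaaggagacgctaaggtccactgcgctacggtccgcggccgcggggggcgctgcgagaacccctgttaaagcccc

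The window searched ran from 250 bases before to 50 after the start site of the most upstream promoter of each gene, on both strands. CAGGTG, the E-box form that Snail proteins bind, was present in 7 of the 28 kept members with a promoter (25%), against 20.0% of all 27025 promoters. Among the genes shown it began 15 bases before the start of Wnt4 and 134 bases before that of Nkd1. CAGACA, a SMAD-binding sequence, was present in 4 of 28 (14.3%, against 21.1% of all promoters), including Nkd2 at 154 bases before the start. The TCF and LEF motifs CTTTGAT and CTTTGAA were present in 1 of 28 each (3.57%, in Wnt11 and Dkk1), against 3.76% and 5.26%, and the AP-1 motif TGANTCA in 1 of 28 (3.57%, in Wnt5b), against 7.92%. No motif searched lies in the windows of Lgr4, Dkk2 and Lef1. The members' promoters were richer in G and C, with a median of 70.3% against 52.7% of bases for all promoters. These matches describe letters in a window and are not evidence of binding.

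The state of the cells was checked on other genes. Snai1 measured 6.69 and 7.63 in untreated and treated Snail1-WT cells and 5.09 and 5.34 in Snail1-KO cells, the direction of the labels. No source used here places its probes relative to the deletion. Of 17 measured early TGF-b target genes, 9 were at least 2-fold higher after TGF-b1 in each genotype. Over all genes kept, the shares higher were 0.714% for Snail1-WT and 0.999% for Snail1-KO. At least 2-fold lower was 1 of 17 per genotype. It was Snai2 at -1.13 for Snail1-WT (0.271% of all genes kept) and Angptl4 at -1.04 for Snail1-KO (0.308%). Of 13 stromal markers 11 were kept, among them Pdgfra, Cxcl12 and Col1a1, but Nt5e and Lepr were not. Mean levels over the whole marker lists lay between 4.38 and 4.54 on the 4 arrays for 8 haematopoietic genes, 4.24 and 4.31 for 5 endothelial genes, 4.61 and 4.73 for 5 epithelial genes, 4.15 and 4.61 for 5 osteoblast genes, 4.54 and 4.76 for 4 adipocyte genes and 7.77 and 8.05 for 5 smooth muscle genes. Of these, 4 haematopoietic genes were kept (Cd68 at 6.05 to 6.23, Cd14 at 5.53 to 6.59, Csf1r and Cd3e), as were 4 epithelial (Cdh1, Krt8, Krt18 and Cldn4) and 3 endothelial genes, while Ptprc, Adgre1, Itgam and Epcam were not. The osteoblast list was lower in Snail1-KO cells (4.18 and 4.15) than in Snail1-WT cells (4.47 and 4.61). This came mainly through Alpl, its only kept gene, at 6.57 and 6.67 in Snail1-WT against 4.78 and 4.85 in Snail1-KO cells. The genes not kept went both ways. Without TGF-b1 the genotype differences of Bglap, Ibsp, Dmp1 and Sp7 were 0.18, -0.26, 0.20 and 0.20. With TGF-b1 they were -0.03, -0.20, -0.36 and 0.12. The part of this list in the genotype differences of the members was not tested. In bulk RNA, fewer cells of a type and less RNA per cell cannot be told apart.

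As a yardstick of error, a noise SD for the difference of 2 arrays was derived from how far the 2 TGF-b1 responses disagreed among the 500 kept genes nearest in level. For kept members it ran from 0.08 to 0.24. True differences between the responses are inside it, and spread between cultures that cancels between the pairs is not. An offset between Snail1-WT and Snail1-KO cultures that is alike with and without TGF-b1 cancels in this way. Beside a genotype difference the noise SD thus does not measure the spread between cultures. Levels of different genes come from different probes and are not compared with each other. The 4 pairs of arrays are not all independent, since each array enters 2 of them; the 2 responses to TGF-b1 share no array, and neither do the 2 genotype pairs.

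Over all 44 kept members, few were 2-fold apart in any pair. After TGF-b1 in Snail1-WT cells, 1 of 44 was at least 2-fold lower (Rspo2; 0.271% of all 13308 genes kept) and 0 were higher (0.714% of genes). In Snail1-KO cells the counts were again 1 lower (Rspo2; 0.308% of genes) and 0 higher (0.999% of genes). Between genotypes, 1 member was lower in untreated Snail1-KO cells (Sfrp1; 0.744% of genes) and 1 higher (Dkk2; 0.827% of genes). With TGF-b1, 1 was lower (Sfrp1; 0.631% of genes) and 1 higher (Fzd6; 1.07% of genes). The median difference of the kept members was 0.00 and 0.02 for the responses in Snail1-WT and Snail1-KO cells, against -0.03 and -0.02 over all genes kept, and -0.01 and 0.00 for the genotype pairs, against 0.00 in both. With this filter the medians of the members thus lay close to those of all genes, and the differences past 2-fold lay in single genes. With the filter at 40% the members' median was 0.31 against 0.02 of all genes left for genotype with TGF-b1. It was then 0.11 against -0.01 for the Snail1-KO response, 0.00 against -0.04 for the Snail1-WT response and 0.01 against -0.01 for genotype without TGF-b1. In both responses 1 member was at least 2-fold lower (Rspo2; 0.15% of genes) and 0 were higher (0.511%); in both genotype pairs 1 was lower (Sfrp1; 0.473%) and 0 higher (0.556%). The 2 responses had the same sign for 30 of 44 members (68.2%, against 67.5% of genes), and the 2 genotype differences for 28 of 44 (63.6%, against 72.4%).

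At the lower threshold of 1.5-fold, 14 of 44 kept members (31.8%) were apart in at least 1 pair, against 15.6% of all genes kept, a share not matched on level. After TGF-b1 in Snail1-WT cells 3 were lower (1.89% of genes) and 2 higher (2.48% of genes), and in Snail1-KO cells 2 were lower (1.83%) and 3 higher (3.31%). In untreated Snail1-KO cells 4 were lower than in Snail1-WT cells (3.13% of genes) and 3 higher (4.01%), and with TGF-b1 5 were lower (3.0%) and 4 higher (5.14%). These members are described by role below, and their 4 values are drawn in the plot of levels by array.

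**Figure D1:**
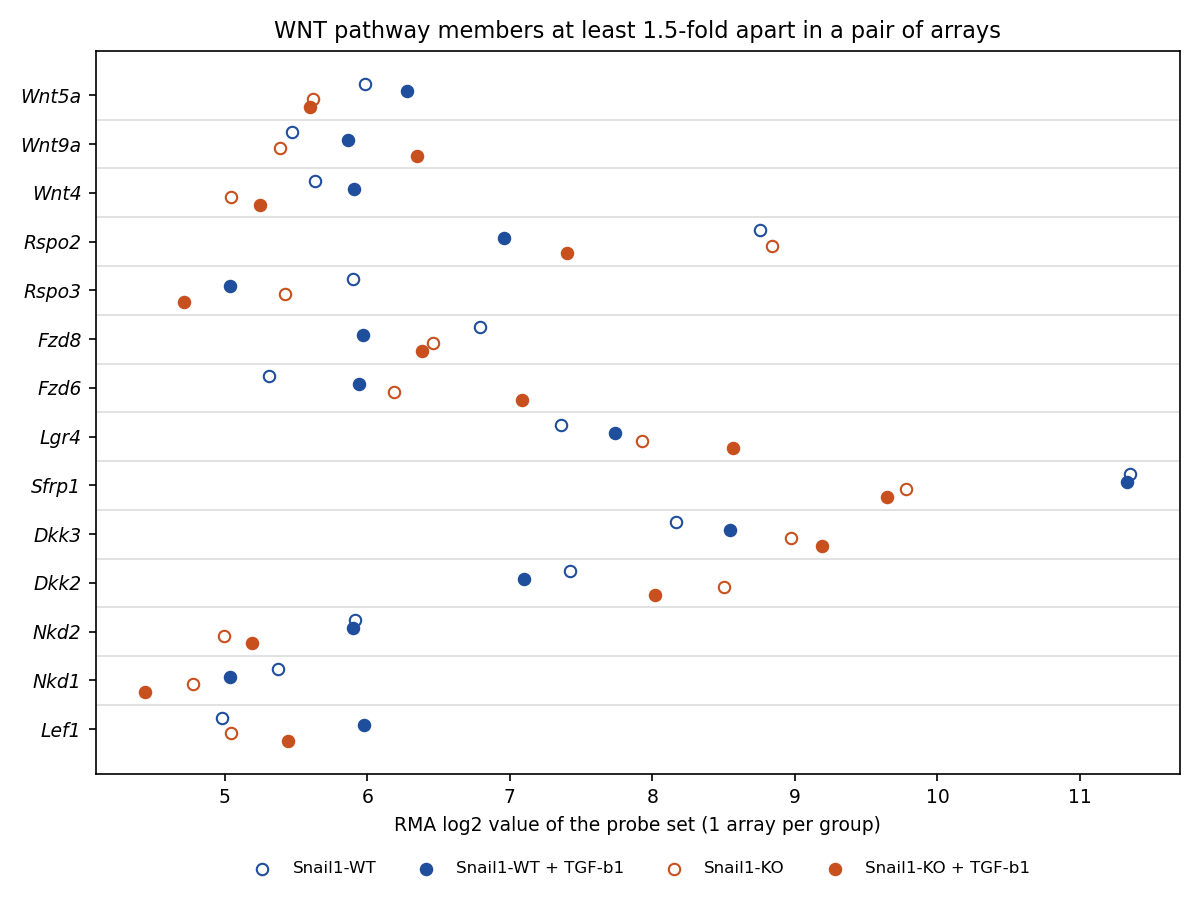
RMA log2 values (horizontal axis) of the 14 kept members that were at least 1.5-fold apart in a pair of arrays, 1 point per array, open for untreated and filled for TGF-b1, blue for Snail1-WT and orange for Snail1-KO. Both filled points of Rspo2 lie left of both open points, and both orange points of Sfrp1 lie left of both blue points; levels of different genes are not comparable.

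Among the WNT ligands 13 of 19 measured genes were kept, with means over the arrays between 4.64 (Wnt7b) and 5.87 (Wnt5a); the lowest mean kept was 4.51. None was 2-fold apart in any of the 4 pairs. Wnt9a, whose product is known from joint and skeletal development, measured 5.47 and 5.87 in untreated and treated Snail1-WT cells and 5.38 and 6.35 in Snail1-KO cells. Its TGF-b1 difference was 0.40 in Snail1-WT against 0.97 in Snail1-KO cells, with a noise SD of 0.18, so both treated values lay above both untreated ones. Wnt5a, the prototype of ligands that act without beta-catenin, measured 5.98 and 6.28 in Snail1-WT cells and 5.61 and 5.60 in Snail1-KO cells. Both Snail1-KO values lay below both Snail1-WT values, by 0.37 without TGF-b1 and by 0.68 with it (noise SD 0.19).

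Wnt4, a ligand used in kidney and gonad development and in stromal cells, also had both Snail1-KO values below both Snail1-WT values. It measured 5.64 and 5.91 in Snail1-WT against 5.04 and 5.25 in Snail1-KO cells, which gave genotype differences of -0.59 and -0.66 (noise SD 0.21). Wnt1, the founding member of the family, was below the 1.5-fold threshold but had like TGF-b1 differences in both genotypes, of 0.57 and 0.53 from untreated values of 4.73 and 4.69. Over the 13 kept ligands the TGF-b1 difference in Snail1-WT cells was above 0 for 11, with a median of 0.27, against 45.2% of all genes kept and a median of -0.03. In Snail1-KO cells it was above 0 for 7 (8 with cyclic loess), with a median of 0.08, against 46.2% of genes and a median of -0.02. Under median centring and cyclic loess the count in Snail1-WT cells was 11 too, with medians of 0.24 and 0.27. The noise SD of the kept ligands ran from 0.18 (Wnt9a) to 0.24 (Wnt11), near the size of these medians. The values of all genes are not matched on level, and the ligands were read on the same arrays. Wnt2, Wnt3, Wnt3a, Wnt8b, Wnt10b and Wnt16 were not kept.

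The R-spondins held the strongest TGF-b1 difference of the members. Rspo2 measured 8.76 in untreated and 6.96 in treated Snail1-WT cells, and 8.84 and 7.40 in Snail1-KO cells. Both treated values lay well below both untreated values, by 1.80 in Snail1-WT (3.49-fold) and 1.44 in Snail1-KO cells (2.70-fold), against a noise SD of 0.11. Among the 13308 genes kept, its difference ranked 4 from the lowest in Snail1-WT cells and 9 from the lowest in Snail1-KO cells. The untreated values of the genotypes differed by 0.08, less than the noise SD, while the treated value was higher in Snail1-KO cells by 0.45.

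Rspo3, a second R-spondin, measured 5.90 and 5.03 in untreated and treated Snail1-WT cells and 5.42 and 4.71 in Snail1-KO cells. Its differences of -0.86 and -0.71 had the sign of those of Rspo2, and exceeded the noise SD of 0.24 in both genotypes. In each treatment the Snail1-KO value was the lower of the 2, by 0.48 and 0.32. Rspo1 measured between 5.64 and 5.73 on all 4 arrays, and Rspo4 between 4.66 and 4.91. Both thus differed by less than the 1.5-fold threshold in all pairs, and only Rspo2 and Rspo3 of the 4 family members passed it. At least 1.5-fold lower in both responses were 0.691% of all genes kept, and 2 of 44 members, namely these genes.

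Of the receptors for R-spondins and the ligases they remove, Lgr4 was the one apart between arrays. It measured 7.36 and 7.74 in Snail1-WT cells and 7.93 and 8.56 in Snail1-KO cells. Both Snail1-KO values lay above both Snail1-WT values, with genotype differences of 0.57 and 0.83, and TGF-b1 was accompanied by higher values in both genotypes, by 0.37 and 0.63 (noise SD 0.11). Znrf3 measured 5.96 and 6.29 in Snail1-WT against 5.94 and 6.29 in Snail1-KO cells, TGF-b1 differences of 0.33 and 0.36 beside a genotype difference of -0.02 without TGF-b1. Rnf43 measured 5.14 and 4.93 in Snail1-WT against 4.66 and 4.55 in Snail1-KO cells, lower in Snail1-KO cells by 0.48 and 0.38.

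Of 10 measured Frizzled genes 8 were kept; Fzd3 and Fzd10 were not. Fzd6, a receptor best known from hair and tissue polarity, measured 5.31 and 5.94 in untreated and treated Snail1-WT cells and 6.18 and 7.09 in Snail1-KO cells. Both Snail1-KO values exceeded both Snail1-WT values, and within each genotype the treated value was the higher. Its genotype difference was 0.88 without and 1.14 with TGF-b1, and its TGF-b1 difference 0.64 in Snail1-WT against 0.90 in Snail1-KO cells (noise SD 0.18). It was the only kept member at least 1.5-fold higher in both responses (1.83% of genes).

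Fzd8 differed in its TGF-b1 response between genotypes. It measured 6.79 and 5.97 in Snail1-WT cells and 6.46 and 6.38 in Snail1-KO cells, so that treated Snail1-WT cells gave the lowest value. The TGF-b1 difference was -0.82 in Snail1-WT against -0.08 in Snail1-KO cells, 0.74 apart. The noise SD expected of such a difference of responses was 0.24, and this yardstick was itself built from differences of responses. The remaining 6 kept Frizzled genes stayed under the 1.5-fold threshold in all pairs, with Fzd7 nearest to it, at 7.04 in treated Snail1-WT against 7.62 in treated Snail1-KO cells. With TGF-b1, 7 of the 8 kept Frizzled genes were higher in Snail1-KO cells (median 0.31, and 0.36 and 0.29 with median centring and cyclic loess), against 4 of 8 without it (median 0.00). Over all genes kept, 49.6% were higher with and 50% without TGF-b1, with medians of 0.00. The pattern with TGF-b1 was not seen in Frizzled genes alone, since the 2 co-receptor genes were higher in Snail1-KO cells too (median 0.37). The 13 kept ligands had a median of -0.22, and all kept members 0.00. With the filter at 40%, all members left had a median of 0.31, against 0.02 for all genes left. Frizzled genes are among those members, so this median cannot tell whether the pattern was particular to them. Each count rests on 1 pair of arrays.

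The co-receptor genes stayed within the 1.5-fold threshold. Lrp6 measured 9.48 and 9.60 in Snail1-WT against 9.92 and 10.03 in Snail1-KO cells, higher in Snail1-KO cells by 0.44 and 0.43, and its dimmer probe set gave 0.24 and 0.53. Lrp5 measured 8.82 on both Snail1-WT arrays, and 8.72 and 9.13 in untreated and treated Snail1-KO cells.

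**Figure D2:**
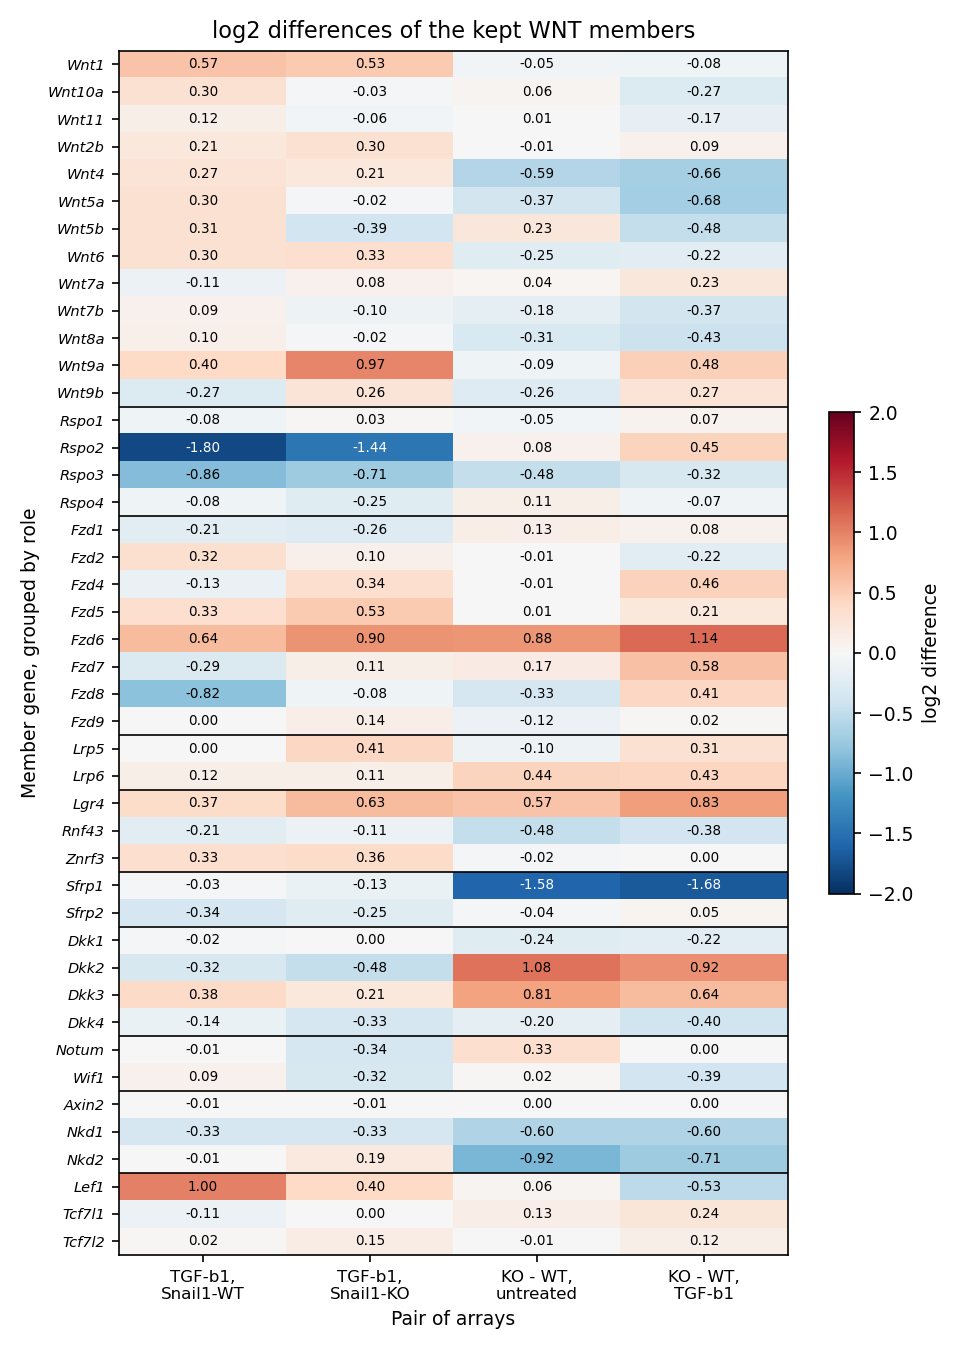
Colour and number give the log2 difference of each of the 44 kept members (rows, grouped by role with lines between roles) in the 4 pairs of arrays (columns), red for higher and blue for lower. The deepest blue cells are Rspo2 in the 2 TGF-b1 columns and Sfrp1 in the 2 genotype columns; most other cells are pale.

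Among secreted inhibitors, the genotype differences went both ways. Sfrp1, which binds WNT ligands and Frizzled receptors, measured 11.35 and 11.33 in untreated and treated Snail1-WT cells and 9.78 and 9.65 in Snail1-KO cells. Both Snail1-KO values lay far below both Snail1-WT values, by 1.58 without TGF-b1 (2.99-fold) and by 1.68 with it (3.21-fold), with a noise SD of 0.08. Among all genes kept this difference ranked 27 from the lowest without and 16 from the lowest with TGF-b1. Its TGF-b1 difference was -0.03 in Snail1-WT against -0.13 in Snail1-KO cells.

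Sfrp2, by contrast, measured 9.98 and 9.64 in Snail1-WT against 9.93 and 9.68 in Snail1-KO cells. Its genotypes were within 0.05 of each other, while its TGF-b1 difference was -0.34 and -0.25. Its dimmer probe set gave genotype differences of -0.29 and -0.06 and TGF-b1 differences of -0.26 and -0.03. Sfrp4 and Sfrp5 were not kept. Wif1, with values between 4.82 and 5.20, and Notum, a WNT deacylase, with values between 4.68 and 5.03, stayed near the lowest mean kept; the dimmer probe set of Notum gave a genotype difference of opposite sign without TGF-b1 (-0.35 against 0.33).

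Of the Dickkopf genes, Dkk2 and Dkk3 were higher in Snail1-KO cells. Dkk2, an LRP-binding antagonist with roles in bone and eye, measured 7.42 and 7.10 in Snail1-WT against 8.50 and 8.02 in Snail1-KO cells. Its genotype difference was 1.08 without TGF-b1 (2.11-fold) and 0.92 with it (1.89-fold), and both treated values lay below the untreated value of the same genotype, by 0.32 and 0.48 (noise SD 0.11). Dkk3, a divergent family member, measured 8.17 and 8.55 in Snail1-WT against 8.98 and 9.19 in Snail1-KO cells. It was higher in Snail1-KO cells by 0.81 and 0.64, and higher after TGF-b1 by 0.38 and 0.21 (noise SD 0.09). TGF-b1 thus went with lower Dkk2 and higher Dkk3 in both genotypes. Dkk1, the best known inhibitor of the co-receptors, measured between 4.68 and 4.93, and Dkk4 between 4.35 and 4.88.

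The intracellular feedback genes Nkd1 and Nkd2, which encode Dishevelled-binding inhibitors, were both lower in Snail1-KO cells. Nkd2 measured 5.91 and 5.90 in Snail1-WT against 4.995 and 5.19 in Snail1-KO cells, differences of -0.92 and -0.71 (noise SD 0.21). Nkd1 measured 5.37 and 5.04 in Snail1-WT against 4.78 and 4.44 in Snail1-KO cells, -0.60 in both treatments (noise SD 0.22); 4.44 is under the lowest mean kept, which leaves the size of that difference uncertain. At least 1.5-fold lower in both genotype pairs were 1.65% of genes kept and 4 of 44 members: Nkd1, Nkd2, Sfrp1 and Wnt4. At least 1.5-fold higher in both were 2.6% of genes and 3 of 44 members: Dkk2, Dkk3 and Fzd6.

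Axin2, the feedback gene most used as a readout of beta-catenin activity, measured 4.90 and 4.89 in Snail1-WT against 4.91 and 4.89 in Snail1-KO cells. All 4 values lay within 0.02 of each other and near the lowest mean kept, and its other probe set ranged from 4.73 to 5.04. No difference of Axin2 beyond the noise SD of 0.23 was seen with the probe set taken; the other, nearly as bright, gave -0.30 between genotypes with TGF-b1.

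**Figure D3:**
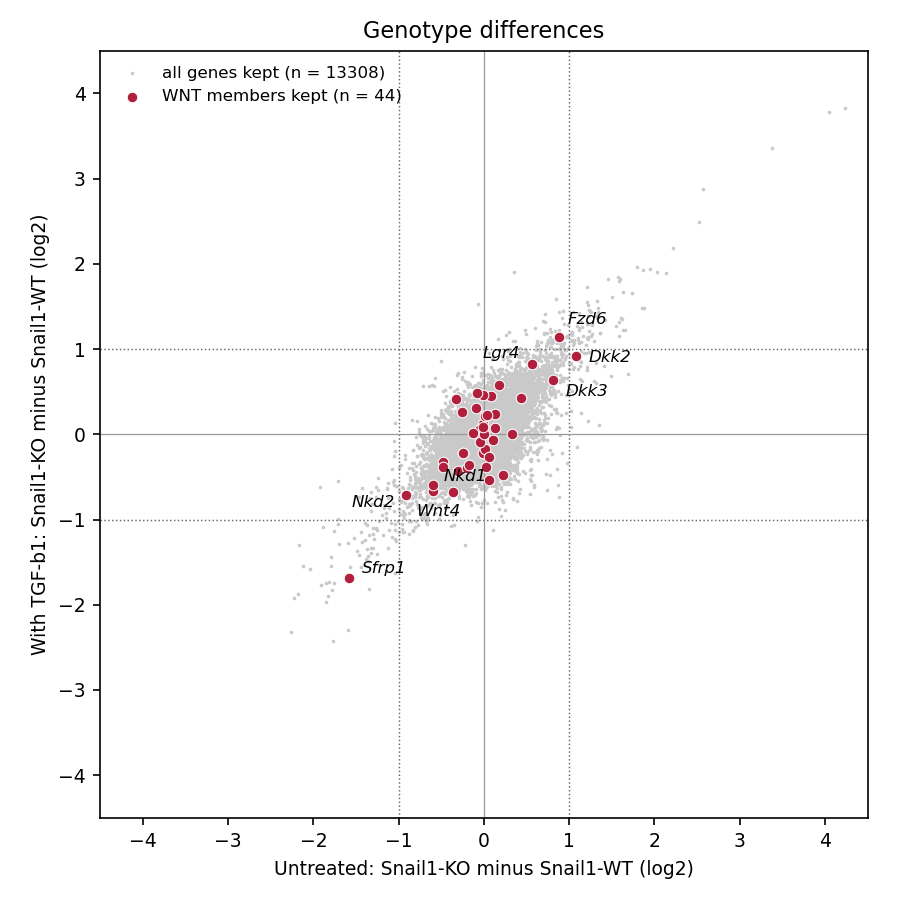
Snail1-KO minus Snail1-WT log2 difference without TGF-b1 (horizontal) and with TGF-b1 (vertical) for 13308 genes kept (grey) and the 44 kept WNT members (red); dotted lines mark 2-fold. Sfrp1 lies beyond the lower lines on both axes, Dkk2 beyond the upper line without TGF-b1 and Fzd6 beyond the upper line with it.

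Of the nuclear factors, Lef1 had the highest TGF-b1 difference of all members in Snail1-WT cells. It measured 4.98 and 5.98 in untreated and treated Snail1-WT cells and 5.04 and 5.44 in Snail1-KO cells. The treated Snail1-WT value stood above the other 3, and the TGF-b1 difference was 0.998 in Snail1-WT against 0.40 in Snail1-KO cells, -0.59 apart, with an expected noise SD of 0.32 for the difference of responses. The value of 0.998 lies just under 2-fold, and with cyclic loess scaling it was 1.0015. Tcf7l1, a factor that mostly represses, measured between 8.85 and 9.10, and Tcf7l2, the main partner of beta-catenin in many tissues, between 8.02 and 8.16. Neither reached 1.5-fold in any pair.

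To ask whether the members responded to TGF-b1 otherwise in the absence of Snail1, the Snail1-WT response was subtracted from the Snail1-KO response. Of 44 kept members 0 were at least 2-fold apart in either direction (0.105% of genes higher, 0.233% lower). At 1.5-fold, Fzd8 was higher (1.61% of genes) at 0.74, and Lef1 and Wnt5b were lower (1.97% of genes) at -0.59 and -0.71. The median was 0.02 for the members and 0.02 for all genes kept, and with the filter at 40% it was 0.11 against 0.04. For Rspo2 the difference of responses was 0.37, with an expected noise SD of 0.15.

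**Figure D4:**
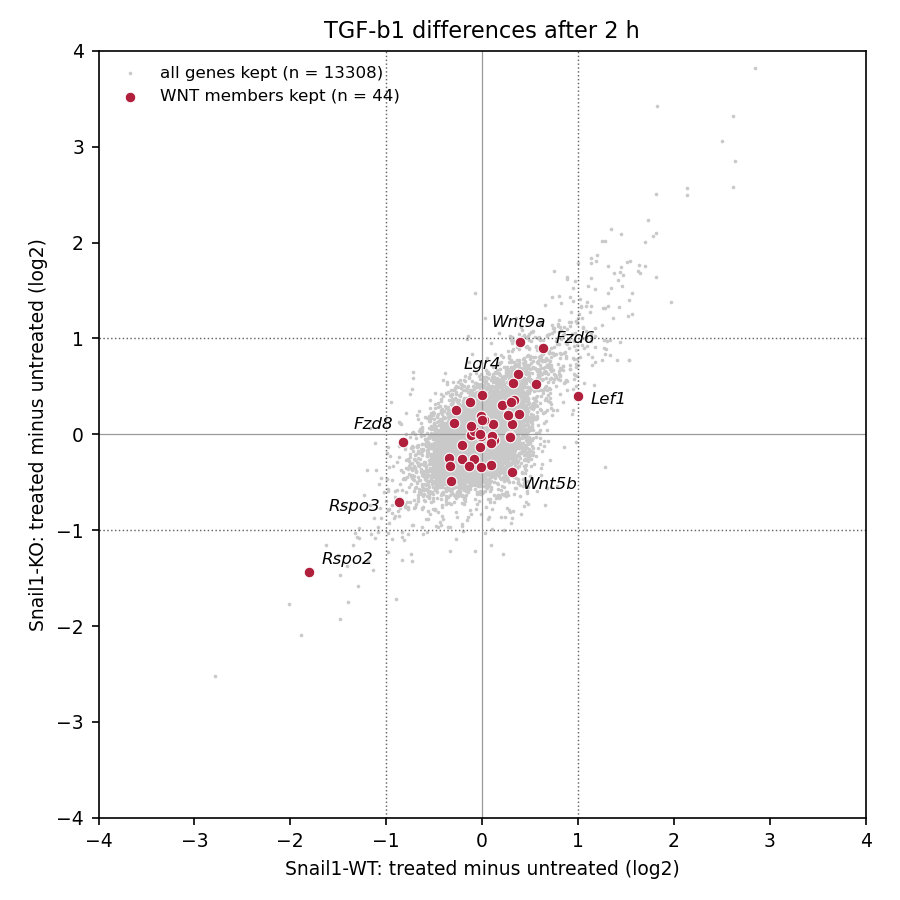
TGF-b1 log2 difference after 2 h in Snail1-WT cells (horizontal) and Snail1-KO cells (vertical) for 13308 genes kept (grey) and the 44 kept WNT members (red); dotted lines mark 2-fold. Rspo2 lies below the lower lines on both axes, while Fzd8 and Lef1 are away from 0 mainly on the Snail1-WT axis.

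The 30 other kept members stayed under the 1.5-fold threshold in all 4 pairs, with 0.58 for Fzd7 as the highest size of a difference. The 10 members that were not kept had values between 3.41 and 4.62, and 0.45 was the highest size of a difference (Wnt16).

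Other genes of the pathway were taken from lists. Of 25 kept transduction genes, 0 were 2-fold apart after TGF-b1 in either genotype, with medians of 0.03 and 0.15 against -0.03 and -0.02 for all genes kept. Beta-catenin itself (Ctnnb1) measured 8.74 and 8.88 in Snail1-WT against 8.90 and 9.13 in Snail1-KO cells. Between genotypes, 1 of 25 was at least 2-fold lower without TGF-b1 (0.744% of genes) and 0 with it (0.631%): Pygo1, a beta-catenin co-activator gene, measured 6.31 and 6.20 in Snail1-WT against 5.12 and 5.25 in Snail1-KO cells (-1.19 and -0.95). The medians of the genotype differences were -0.07 and -0.02, against 0.00 for all genes kept in both pairs.

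The list of WNT secretion and extracellular control, which also holds the intracellular Dact genes, had 16 kept genes. Of these, 0 were 2-fold apart after TGF-b1 in either genotype. In both genotype pairs the Snail1-KO array was at least 2-fold lower for 2 (0.473% of all genes kept). Dact1, which encodes a Dishevelled-binding protein, measured 6.92 and 6.84 in Snail1-WT against 5.80 and 5.71 in Snail1-KO cells (-1.12 and -1.13). Draxin, a secreted WNT antagonist and axon guidance gene, measured 5.60 and 5.66 in Snail1-WT against 4.56 and 4.44 in Snail1-KO cells (-1.04 and -1.23). Gpc6 was lower in Snail1-KO cells too (-0.88 and -0.82). The WNT carrier gene Wls differed by 0.25 and 0.29. Other genes of the list were higher in Snail1-KO cells, such as the Dickkopf receptor gene Kremen1 (0.52 and 0.30) and Dact2 (0.43 and 0.20). The list medians were 0.05 and -0.01 for TGF-b1, against -0.03 and -0.02 for all genes kept, and -0.10 and 0.01 for genotype, against 0.00.

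Of 21 kept genes of the planar polarity and calcium branches, 2 were at least 2-fold higher after TGF-b1 in Snail1-WT cells (0.714% of all genes kept) and 3 in Snail1-KO cells (0.999%), and 0 were lower. These were calcium-regulated NFAT transcription factor genes, which also serve pathways other than WNT. Nfatc2 measured 5.28 and 7.06 in Snail1-WT against 5.36 and 7.43 in Snail1-KO cells, differences of 1.78 and 2.07. Nfatc1 differed by 1.02 and 1.42 and Nfatc4 by 0.55 and 1.01. The list medians were 0.04 and 0.27, against -0.03 and -0.02 for all genes kept. Between genotypes 1 of 21 was at least 2-fold lower with TGF-b1 (0.631% of genes) and 0 without: Ror1, a receptor-like kinase gene for WNT5A, measured 5.93 and 5.83 in Snail1-WT against 5.05 and 4.82 in Snail1-KO cells (-0.88 and -1.01). Ptk7, a polarity co-receptor gene, differed by -0.80 and -0.63.

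Of 17 kept genes known as WNT targets, 2 were at least 2-fold higher and 1 lower after TGF-b1 in Snail1-WT cells (0.714% and 0.271% of all genes kept), while 3 were higher and 1 was lower in Snail1-KO cells (0.999% and 0.308%). Ccn4, a matricellular gene, measured 9.10 and 10.44 in Snail1-WT against 8.04 and 10.19 in Snail1-KO cells. Tnfrsf11b, encoding the osteoclast inhibitor osteoprotegerin, differed by 1.82 and 2.50, the matricellular gene Ccn1 by 0.80 and 1.44, and Bmp4, a bone morphogenetic protein gene, by -2.01 and -1.77. These genes are targets of several pathways, TGF-b among them, so their values are no readout of WNT alone. Sp5, a more specific beta-catenin target, measured between 4.52 and 4.66, near the lowest mean kept. Ccnd1 differed by -0.15 and -0.29 and Myc by 0.47 and 0.43. The list medians were -0.04 and 0.43 for TGF-b1, against -0.03 and -0.02 for all genes kept, and -0.45 and -0.19 for genotype, against 0.00. Between genotypes Ccn4 was the 1 gene past 2-fold, lower without TGF-b1 (-1.05, 0.744% of genes). In the difference of the responses 1 of 17 was at least 2-fold higher (Id2 at 1.21, 0.105% of genes) and 0 were lower (0.233%).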

How the data were processed

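RNA of 4 mouse samples, 1 array per group, was measured on Affymetrix arrays after biotin labelling, per the labels' protocols. Per the submitters' processing notes, R 3.1.1 and the RMA method were used, and the deposited values are on the log2 scale. RMA equalises the distributions of the arrays, so a shift common to most genes would be removed. The genome build of the authors was not given in the sources used here. The number of arrays limits the precision.

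The platform annotation gave 1 gene symbol to 23521 of 41345 probe sets and several to 1814, and 16010 were not named here. All 54 members matched a gene of RefSeq (GRCm38.p6) by Entrez identifier. For each gene the brightest probe set on average was taken, and the 60% of genes with the highest mean (at least 4.51, 13308 genes) were kept. Differences of log2 values were taken between arrays, with 2-fold as the threshold for counts. With 1 array per group no test was run. The noise SD is the scaled median absolute deviation of the difference of responses among the 500 nearest genes, divided by the square root of 2. The calculation was tested on simulated data.

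Named with their differences are members kept and at least 1.5-fold apart in a pair, and up to 4 genes per list and comparison; other kept members are given by level. Differences of Sfrp2, Lrp5, Lrp6, Fzd7, Notum, Kremen1, Dact2, Wnt1, Wnt5b, Znrf3, Rnf43, Axin2, Sp5, Ccnd1, Myc, Ctnnb1 and Wls were added after their values were seen. Outside the naming rule, differences are also given for the neighbouring ligand genes Wnt3, Wnt3a, Wnt6, Wnt9b, Wnt10a and Wnt10b. The same holds for Wnt16 and for the osteoblast markers. The members and lists were chosen with earlier results of these data known. Alternatives were median centring, cyclic loess (limma 3.58.1 in R 4.3.3), the mean of all probe sets, a filter at 40% or none, and a 1.5-fold threshold. Other work used numpy 2.4.6, pandas 2.3.3 and matplotlib 3.10.9 under Python 3.11.15.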

Additional observations from a re-analysis of the deposited data

Results flagged for a closer look

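Among 123 kept members and kept genes of the WNT lists, 3 had TGF-b1 differences of opposite sign in the 2 genotypes that were at least 1.5-fold apart. Among all 13308 genes kept there were 377. The share among the WNT genes was thus no higher than that of all genes, and the count is no result about the pathway. Wnt5b, a ligand that acts mainly without beta-catenin, differed by 0.31 in Snail1-WT and by -0.39 in Snail1-KO cells (noise SD 0.22), from untreated values of 4.73 and 4.96. Id2, an inhibitor of basic helix-loop-helix factors, differed by -0.73 and 0.48, and Daam1, a formin of the polarity branch, by -0.14 and 0.75 (noise SD 0.18 for both). With 1 array per group these differences were not tested.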

How the results depend on the processing

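With the threshold at 1.5-fold, the members counted as higher and lower were 2 and 3 for TGF-b1 in Snail1-WT cells, 3 and 2 for TGF-b1 in Snail1-KO cells, 3 and 4 for genotype without TGF-b1, 4 and 5 with it, and 1 and 2 for the difference of the responses; a lower threshold admits more genes by construction. With cyclic loess 1 member, Lef1 at 1.0015, was higher after TGF-b1 in Snail1-WT cells, against 0. The other 49 recomputed counts were within 1.5 times the main count. Every main count was 0 or 1, so this says little about how stable the results are. All 140 differences of the 14 members named by rule, recomputed with median centring and cyclic loess, moved by less than their noise SD. The mean of probe sets cannot change them, since each of these members has 1 probe set. The filter cannot change a difference either, but the stricter alternative filter leaves out Lef1, Nkd1, Nkd2, Rspo3, Wnt4 and Wnt9a. No paired analysis was possible because each group had 1 array and the labels give no replicate numbers to pair. Members whose values lie near 4.51 have little signal over background, and the sizes of their differences are uncertain.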

Other observations

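Of the WNT ligand genes, 4 pairs are direct neighbours in the order of protein-coding genes in RefSeq (GRCm38.p6), and the neighbours did not always move alike. After TGF-b1 in Snail1-KO cells Wnt9a measured higher by 0.97, while its neighbour Wnt3a, which was not kept, differed by -0.42. In Snail1-WT cells the same genes differed by 0.40 and -0.16. Wnt1 differed by 0.57 and 0.53 in Snail1-WT and Snail1-KO cells, and its neighbour Wnt10b, not kept, by 0.20 and 0.27. Wnt6 and Wnt10a were both at 0.30 in Snail1-WT cells, and at 0.33 and -0.03 in Snail1-KO cells. Wnt3, not kept, differed by 0.30 in each genotype, and its neighbour Wnt9b by -0.27 and 0.26. Most of these values come from genes near the lowest mean kept, and none has a replicate check.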
